A study of Mus musculus with 15 samples.

Results

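Hippocampal gene expression of ApoE4 mice was compared with that of wild-type (WT) mice across all genes expressed in the hippocampus. ApoE4 mice were ApoE4+/wt females aged 3 months, in which 1 of the 2 copies of mouse *Apoe* carried the human *APOE4* sequence as a knock-in, and WT mice were females of the C57BL/6JInv strain of the same age. Both groups belonged to batch 2 of the study, with 3 whole-hippocampus libraries each, so the comparison used 6 of the 15 libraries of the series. The other 9 libraries, from batch 1, held WT mice, mice with knock-in mutations of *App* and mice with both genotypes, and none of them were ApoE4 single mutants. Genes with more than 1 CPM, a read count scaled to the size of its library, in at least 3 of the 15 libraries were tested. This kept 16171 genes, 13911 of them protein-coding, of 55471 gene IDs. The labels give the 3 replicates of a group only a number, while the study's methods give N = 3 per group and its figure legend counts mice. A p-value here sets the group difference against the spread between libraries, estimated with help from all genes. It says nothing beyond these libraries.

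*APOE* encodes apolipoprotein E, the main lipid carrier of the brain, which astrocytes secrete and which delivers cholesterol to neurons through lipoprotein receptors. People who carry the E4 allele develop Alzheimer's disease more often, and on average earlier in life, than carriers of E3. In the knock-in, human *APOE4* stands under the control of the mouse locus, so it is made by the cells that normally make mouse apolipoprotein E. The hippocampus, which forms new memories, is rich in receptors for glucocorticoids, the steroid hormones that the adrenal gland releases on a daily rhythm and in stress. The bound receptor moves to the nucleus and switches on target genes. Cells that must fold more secreted or membrane protein raise the chaperones of the endoplasmic reticulum (ER) through the unfolded protein response.

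The read counts summed to 38089276 to 44630808 per ApoE4 library and 37518090 to 38843827 per WT library. Values below are CPM after upper quartile scaling and compare a gene between libraries, not genes of unequal length with each other. *Apoe* did not serve to check the labels, since human and mouse reads had been added into 1 row. *Apoe* (chr7:19696109-19699188, GRCm38) had 1723, 1609 and 1504 CPM in the ApoE4 libraries, against 1578, 1653 and 1839 CPM in the WT libraries. The groups overlapped, and the log2 fold change was -0.07 (standard error 0.08). *App*, the gene of the amyloid precursor protein, averaged 1593 ± 60.6 CPM in ApoE4 mice and 1548 ± 20.2 CPM in WT mice (SD, n = 3 each), and its log2 fold change was 0.04 (standard error 0.06). Within 500 kb of *Apoe*, 4 of 29 measured genes, *Apoe* included, had an unadjusted p under 0.05, beside 6.05% of all genes tested. They were *Ppp1r37* with a log2 fold change of 0.11 and *Pvr*, *Gm20512* and *Gm19345* with -0.26, -0.38 and -0.70. These 4 were chosen after their values were seen.

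Some libraries differed from the rest of their own group in markers of tissue next to the hippocampus. The summed level of 18 striatal markers was 542, 509 and 1989 CPM in ApoE4 mice, against 464, 495 and 493 CPM in WT mice, so ApoE4 library 3 stood apart. Of 18 thalamic and habenular markers, the sum was 646, 519 and 628 CPM in ApoE4 mice and 420, 546 and 1277 CPM in WT mice, with WT library 3 apart. For 15 choroid plexus markers, ApoE4 library 1 with 3218 CPM and WT library 3 with 2758 CPM were far above the other 4 libraries, which had 267 to 334 CPM. No marker of these 3 lists was at 0 in all 6 libraries. Neurons, astrocytes, oligodendrocytes and microglia were all represented by their defining markers in each library.

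**Figure D1:**
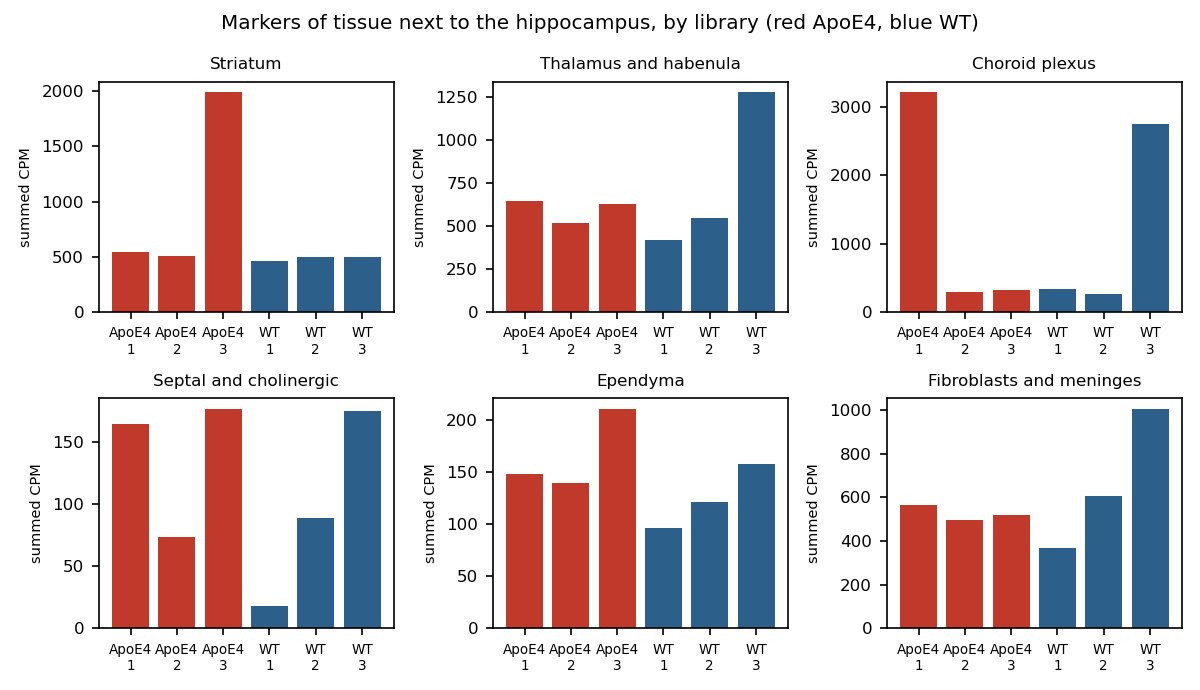
Summed CPM of marker genes of 6 tissues or cell types next to the hippocampus (vertical axes from 0, CPM) in each of the 3 ApoE4 (red) and 3 WT (blue) libraries. ApoE4 library 3 is high in striatal markers (1989 CPM), WT library 3 in thalamic markers (1277 CPM), and ApoE4 library 1 and WT library 3 in choroid plexus markers (3218 and 2758 CPM).

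No gene passed an adjusted p under 0.1 in edgeR's quasi-likelihood test with Benjamini-Hochberg adjustment (0% of 13911 protein-coding genes; smallest adjusted p 0.665), while 978 of 16171 genes had an unadjusted p under 0.05. These 978 genes were 6.05% of those tested, with 530 higher in ApoE4 mice (3.28%) and 448 lower (2.77%). This split was 595 and 375 with TMM scaling, 1113 and 489 with no filter, and 519 and 266 without ApoE4 library 3 and WT library 3 together, an alternative added after seeing the data. Without ApoE4 library 3, 474 genes had an unadjusted p under 0.05. Without WT library 2, the quasi-likelihood test called 1 gene, *Atp2b4*, a calcium pump, at an adjusted p of 0.0506, with 145, 157 and 157 CPM in ApoE4 mice and 84.2, 165 and 82.9 CPM in WT mice. On the same counts, DESeq2 called 43 protein-coding genes at an adjusted p under 0.1, 35 higher (0.252%) and 8 lower (0.0575%), and edgeR's robust likelihood ratio test called 115, 86 higher (0.618%) and 29 lower (0.208%). The 2 tools shared 40 genes, and in all 43 genes called by DESeq2 the ApoE4 and WT libraries did not overlap. Across all genes, 872 had every ApoE4 library above every WT library (5.39%) and 1098 had every one below (6.79%). The values that follow are therefore levels and fold changes of genes ranked by unadjusted p. In whole tissue, fewer cells of a type and less RNA per cell cannot be told apart.

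*Trim36*, which encodes a ubiquitin ligase, had the smallest unadjusted p of all genes (6.8e-05 in the quasi-likelihood test). *Trim36* (chr18:46165300-46212607, GRCm38) had 6.59, 6.76 and 6.68 CPM in ApoE4 mice, against 10.5, 10.3 and 10.3 CPM in WT mice, and the log2 fold change was -0.63 (standard error 0.08). The 3 libraries of each group lay close together, with a wide gap between the groups. *Fos*, an immediate early gene that neuronal activity induces, had 14.9, 11.4 and 11.9 CPM in ApoE4 mice and 20.9, 25.03 and 21.2 CPM in WT mice. Its log2 fold change was -0.81 (standard error 0.12), and it had the smallest adjusted p with DESeq2 (6.8e-05). *Dio2*, the enzyme that converts thyroxine to active thyroid hormone in astrocytes, had 102, 96.7 and 96.9 CPM in ApoE4 mice, against 82.4, 81.9 and 81.4 CPM in WT mice. Its log2 fold change of 0.27 (standard error 0.04) was small, and the groups were again well apart. Of 12 genes tied to thyroid hormone, *Dio2* and *Klf9* had an unadjusted p under 0.05, both higher, beside 3.28% of all genes. The list median was 0.04. In *Thrsp* and *Hr* the groups overlapped, with log2 fold changes of 0.11 and -0.33.

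Among the 12 genes with the smallest p in the higher direction were also *Zbtb16*, *Fkbp5* and *Hif3a* of the glucocorticoid response, *Pdia4* and *Hspa5* of the ER, and 6 genes of other roles. Of these, *Fzd2*, a receptor for Wnt ligands, had 15.2, 14.7 and 16.9 CPM in ApoE4 mice and 10.9, 11.4 and 11.1 CPM in WT mice (log2 fold change 0.49, standard error 0.08). *Wnt9a*, which encodes a Wnt ligand, was among the 12 in the lower direction, with 5.04, 4.72 and 4.83 CPM in ApoE4 mice and 6.71, 7.06 and 7.88 CPM in WT mice (-0.57, standard error 0.11). *Irs2*, which passes on the signal of the insulin receptor, had a log2 fold change of 0.25, and *Gpt2*, a mitochondrial enzyme of alanine metabolism, of 0.28. *Lrrc8c*, a subunit of the volume-regulated anion channel, had 0.44, *Zbtb40* had 0.49 and *Lonrf3* had 0.36. In the lower direction stood *Ppp1r3c*, a subunit that directs a phosphatase to glycogen (-0.29), *Stx17*, a syntaxin of autophagosomes (-0.24), *Reep1*, which shapes the ER (-0.19), and *Micall2* (-0.90). In all 24 genes the ApoE4 and WT libraries did not overlap, which the choice of these genes required.

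**Figure D2:**
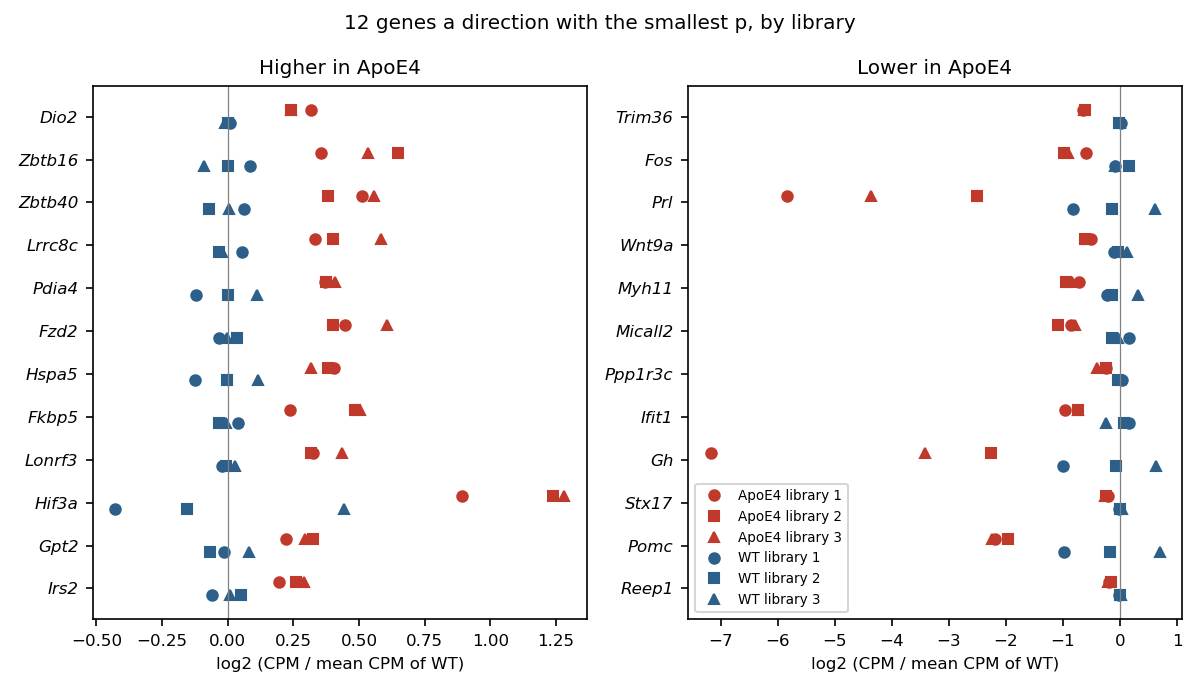
Each library's CPM on a log2 scale relative to the WT mean (horizontal axes, log2) for the 12 genes higher and 12 genes lower in ApoE4 mice with the smallest unadjusted p; ApoE4 libraries are red, WT libraries blue, and symbols mark libraries 1 to 3. Most genes lie within 1 log2 unit of the WT mean, while *Prl* and *Gh* lie more than 2 units below it in every ApoE4 library, and the choice of genes required groups that do not overlap. *Prl* and *Gh* passed the expression filter only through the WT libraries.

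Target genes of the glucocorticoid receptor were mostly higher in ApoE4 mice. Of 32 measured genes, 27 had a log2 fold change above 0, and the list median was 0.18, beside -0.01 over all tested genes and 45.9% of genes above 0. With an unadjusted p under 0.05 there were 14 higher, beside 3.28% of all genes, and 1 lower. In 14 genes, too, every ApoE4 library was above every WT library (5.39% of all genes). The list was set with earlier results of these data known, so these counts are a description and not a test. *Zbtb16* (chr9:48654297-48836222, GRCm38), a zinc-finger transcription factor, had 79.6, 97.5 and 90.0 CPM in ApoE4 mice, against 66.0, 62.2 and 58.4 CPM in WT mice. *Fkbp5*, a co-chaperone that lowers the affinity of the receptor for its hormone, had 65.3, 77.5 and 78.5 CPM in ApoE4 mice and 56.9, 54.1 and 55.1 CPM in WT mice. In both genes ApoE4 library 1 was the lowest of its group and still above all WT libraries. *Hif3a*, a hypoxia-inducible factor subunit, had 11.8, 15.01 and 15.5 CPM in ApoE4 mice and 4.72, 5.70 and 8.64 CPM in WT mice.

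*Cdkn1a*, the cell cycle inhibitor p21, had 15.05, 13.5 and 14.5 CPM in ApoE4 mice, against 4.81, 8.57 and 9.06 CPM in WT mice (log2 fold change 0.94, standard error 0.21). *Tsc22d3*, which encodes the anti-inflammatory mediator GILZ, had 118, 125 and 119 CPM in ApoE4 mice and 74.0, 91.4 and 105 CPM in WT mice (0.42, standard error 0.11). WT library 1 was lowest in both genes, and WT library 3 highest. *Mertk*, a receptor with which glia take up apoptotic debris, had 48.3, 57.8 and 50.6 CPM in ApoE4 mice and 41.4, 37.0 and 41.4 CPM in WT mice (0.39, standard error 0.08). *Nr3c1*, the gene of the glucocorticoid receptor itself, was the member with an unadjusted p under 0.05 in the lower direction, with 96.8, 94.5 and 99.1 CPM in ApoE4 mice and 108, 115 and 101 CPM in WT mice (log2 fold change -0.15, chosen after its values were seen).

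The mean of the 32 genes, each centred on its mean over the 6 libraries, was 0.13, 0.15 and 0.14 log2 units in ApoE4 mice and -0.30, -0.19 and 0.06 in WT mice. WT library 3, the library with most thalamic and many choroid plexus transcripts, was closest to the ApoE4 libraries. Without WT library 1 the list median was 0.08, the lowest when 1 library was left out, and without WT library 3 it was 0.25, the highest. Between 11 and 19 genes of the list then had an unadjusted p under 0.05 in the higher direction. With ApoE4 library 3 and WT library 3 both left out, an alternative chosen after seeing the data, the median was 0.33 and 19 genes did.

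Chaperones were also mostly higher in ApoE4 mice, and the members with an unadjusted p under 0.05 were mostly chaperones of the ER. Of 26 measured chaperones, 19 had a log2 fold change above 0 and 11 had an unadjusted p under 0.05 in the higher direction, beside 3.28% of all genes, and none in the lower direction. This list, too, was set with earlier results of these data known. When the list was divided by compartment, after the values were seen, 12 of 13 ER genes were above 0, with a median of 0.20, and 9 of them had an unadjusted p under 0.05. Of the 13 chaperones of the cytosol, nucleus and mitochondria, 7 were above 0, with a median of 0.02. Of these, *Hspa1a* and *Hspa1b*, which encode the inducible Hsp70 proteins, had an unadjusted p under 0.05, with log2 fold changes of 0.28 and 0.38. They are near-identical copies, so the division of reads between them is uncertain.

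*Hspa5* (chr2:34771970-34777547, GRCm38), the ER chaperone BiP whose release from stress sensors starts the unfolded protein response, had 331, 327 and 312 CPM in ApoE4 mice, against 230, 250 and 272 CPM in WT mice. Its log2 fold change was 0.37 (standard error 0.07). *Pdia4*, a protein disulfide isomerase, had 52.4, 52.5 and 53.8 CPM in ApoE4 mice and 37.2, 40.6 and 43.7 CPM in WT mice (0.39, standard error 0.06). In both, the ApoE4 libraries lay closer together than the WT libraries, of which library 3 was highest. *Hyou1*, an ER chaperone of the Hsp110 family, had 115, 119 and 117 CPM in ApoE4 mice and 99.3, 102 and 104 CPM in WT mice (0.20, standard error 0.04). *Sdf2l1*, *Creld2* and *Manf*, 3 ER proteins that the unfolded protein response induces, had log2 fold changes of 0.44, 0.37 and 0.25. DESeq2 called *Hspa5*, *Pdia4* and *Hyou1* at adjusted p of 0.00039, 0.0010 and 0.024. Of 31 further genes of ER folding and degradation, a list chosen after the data were seen, 23 were above 0 with a median of 0.03. In this list 3 had an unadjusted p under 0.05, beside 6.05% of all genes in either direction. These were *Syvn1* and *Derl2*, which act in ER-associated degradation (0.14 and 0.12), and *Sec11c*, a signal peptidase subunit (-0.16).

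**Figure D3:**
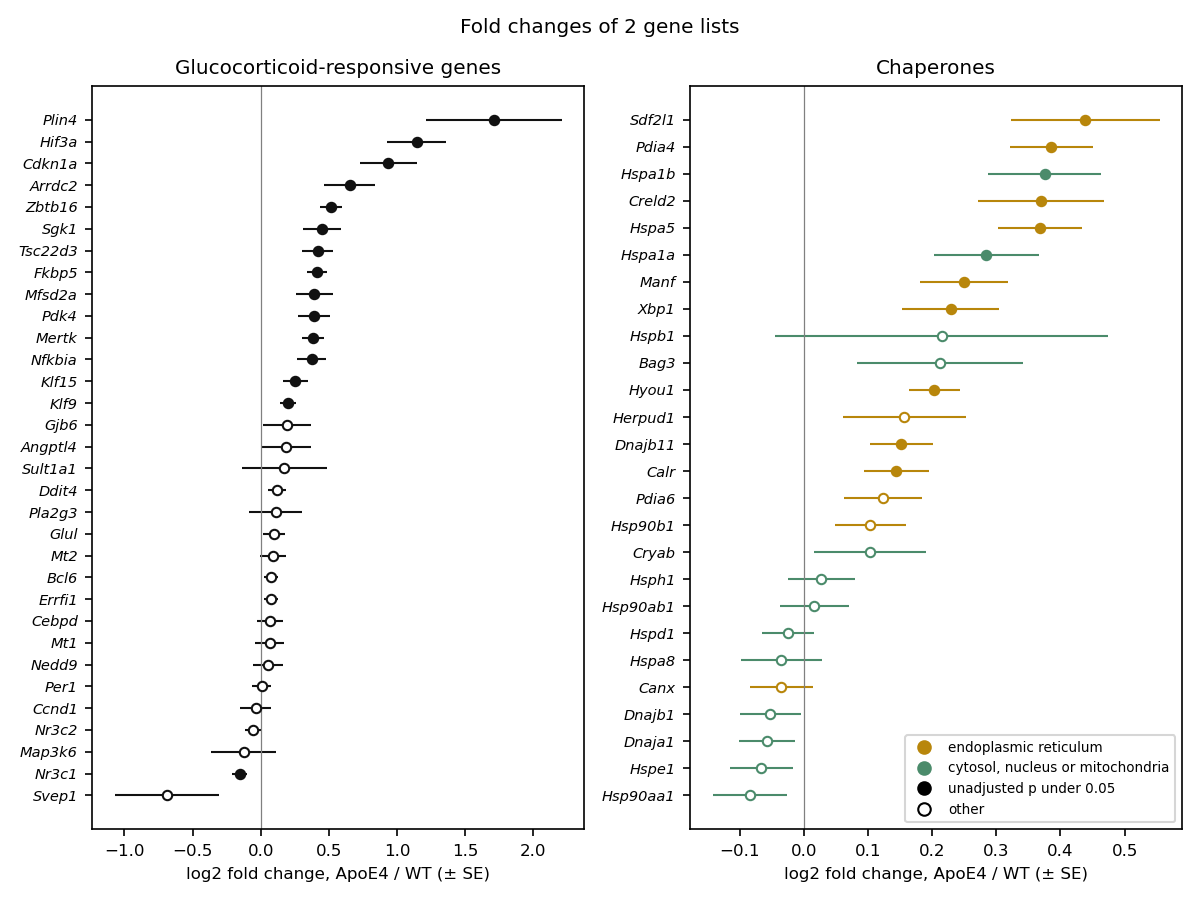
Log2 fold change of ApoE4 over WT (horizontal axes, bars ± 1 standard error of the fit) for the 32 measured glucocorticoid-responsive genes and the 26 measured chaperones; filled symbols have an unadjusted p under 0.05, and gold marks ER chaperones. Of the chaperones, 12 of 13 ER genes lie above 0, and of the glucocorticoid list 27 of 32.

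Genes of the integrated stress response, the set that the factor ATF4 turns on under amino acid shortage and other stresses, did not share this direction. Of 24 measured genes 16 had a log2 fold change below 0, with a median of -0.02, and none had an unadjusted p under 0.05 in the higher direction. *Cebpb*, a transcription factor, had 7.87, 7.94 and 8.99 CPM in ApoE4 mice and 10.5, 11.7 and 11.0 CPM in WT mice (-0.42, standard error 0.09). *Asns*, asparagine synthetase, had a log2 fold change of -0.16. *Cebpb* and *Asns* were the 2 genes of the list with an unadjusted p under 0.05, beside 2.77% of all genes in the lower direction. When 1 library was left out, the ER chaperone median ranged from 0.16 to 0.26, with 6 to 11 of 13 genes at an unadjusted p under 0.05. Without ApoE4 library 3 and WT library 3 it was 0.30, with 12 of 13.

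The promoters of 3 ER chaperones are shown because they hold a motif through which the unfolded protein response acts, and that of *Sgk1*, a kinase gene of the glucocorticoid list, because it holds a motif of the glucocorticoid receptor. The windows are RefSeq sequence on GRCm38.p6, reading 5′ to 3′ along the gene, with the motif in capitals. They cover chr2:34771840-34772139 (*Hspa5*, plus strand), chr8:84846882-84847181 (*Calr*, minus strand), chr15:88819396-88819695 (*Creld2*, plus strand) and chr10:21993640-21993939 (*Sgk1*, plus strand, 1 of its 6 annotated starts). These 4 were chosen after the values of their genes were seen.
Hspa5: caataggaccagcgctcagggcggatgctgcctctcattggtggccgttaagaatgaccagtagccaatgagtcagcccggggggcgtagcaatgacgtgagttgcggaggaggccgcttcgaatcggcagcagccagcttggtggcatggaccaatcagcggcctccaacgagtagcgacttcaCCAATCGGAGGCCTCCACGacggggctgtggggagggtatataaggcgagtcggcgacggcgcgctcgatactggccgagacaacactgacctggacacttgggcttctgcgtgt
Calr: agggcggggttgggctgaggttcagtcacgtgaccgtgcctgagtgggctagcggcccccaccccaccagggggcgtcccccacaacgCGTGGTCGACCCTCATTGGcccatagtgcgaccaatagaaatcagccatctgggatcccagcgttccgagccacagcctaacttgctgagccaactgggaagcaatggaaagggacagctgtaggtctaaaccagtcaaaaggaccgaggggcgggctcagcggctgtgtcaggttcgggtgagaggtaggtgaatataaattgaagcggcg
Creld2: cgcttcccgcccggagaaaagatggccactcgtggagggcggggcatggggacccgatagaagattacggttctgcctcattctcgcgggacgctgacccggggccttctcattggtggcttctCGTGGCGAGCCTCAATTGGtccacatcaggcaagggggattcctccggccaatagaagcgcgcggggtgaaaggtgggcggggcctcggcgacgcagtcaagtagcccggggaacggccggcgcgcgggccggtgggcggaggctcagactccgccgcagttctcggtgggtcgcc
Sgk1: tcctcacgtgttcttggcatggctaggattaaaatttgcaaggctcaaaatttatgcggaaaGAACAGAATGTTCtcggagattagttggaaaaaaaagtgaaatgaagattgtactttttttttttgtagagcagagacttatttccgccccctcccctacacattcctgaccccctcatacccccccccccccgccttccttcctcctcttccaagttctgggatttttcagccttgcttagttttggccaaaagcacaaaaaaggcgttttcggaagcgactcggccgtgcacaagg

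The ER stress element (ERSE), searched as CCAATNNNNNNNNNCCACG on both strands, was found in the windows of 6 of 11 ER chaperones with a window (54.5%), *Hspa5*, *Calr*, *Creld2*, *Hsp90b1*, *Pdia6* and *Canx*. It was found in 37 of the windows of 27025 RefSeq genes (0.137%). Read along the gene, the marked stretch began at -65 from the start of *Hspa5*, at -162 for *Calr* and at -126 for *Creld2*. In *Calr* and *Creld2* the match was on the opposite strand, so the capitals show the reverse complement of the searched letters. A shorter element, ERSE-II, searched as ATTGGNCCACG on both strands, was found for *Dnajb11* and *Herpud1*, and in 12 windows in all (0.0444%). Among the genes with ERSE, *Calr*, which encodes the lectin chaperone calreticulin, had 368, 370 and 338 CPM in ApoE4 mice and 330, 316 and 327 CPM in WT mice (log2 fold change 0.14, chosen after its values were seen). *Hsp90b1*, *Pdia6* and *Canx*, named for the motif, had log2 fold changes of 0.10, 0.12 and -0.04, and their groups overlapped. The glucocorticoid response element, searched as GNACANNNTGTNC on both strands, was found in the windows of 3 of 27 genes of the glucocorticoid list (11.1%), *Sgk1*, *Mt1* and *Map3k6*, and in 145 of all genes (0.537%). *Sgk1* had 210, 183 and 210 CPM in ApoE4 mice, against 120, 140 and 182 CPM in WT mice, with a log2 fold change of 0.45. A match is a run of letters in a window of 300 bases and was not tested as a binding site. The motifs were searched because they are known from these responses, and the ER list was divided off after the values were seen. Their shares in the lists therefore describe the promoters and say nothing on the levels measured here.

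Of 19 genes of the circadian clock, 3 had an unadjusted p under 0.05 in the higher direction and 1 in the lower, beside 3.28% and 2.77% of all genes, with a median of 0.03. These counts were 2 and 0 without WT library 3, 1 and 0 without ApoE4 library 3 and WT library 3 together, and 3 and 2 without WT library 1, and the lower count was also 0 without any single ApoE4 library. *Per2*, a repressor of the clock that glucocorticoids also induce, had 43.5, 46.3 and 52.5 CPM in ApoE4 mice and 38.5, 38.2 and 34.0 CPM in WT mice (log2 fold change 0.36, standard error 0.08). *Per3* had 50.6, 49.8 and 60.3 CPM in ApoE4 mice and 46.8, 43.6 and 39.2 CPM in WT mice (0.31, standard error 0.09). In both, ApoE4 library 3 was highest and WT library 3 lowest. *Tef*, an output factor of the clock, had a log2 fold change of 0.15. *Rorb*, a nuclear receptor also expressed in cortical and thalamic neurons, had 18.8, 17.0 and 17.2 CPM in ApoE4 mice and 19.5, 19.8 and 29.9 CPM in WT mice (-0.39), with the highest level in WT library 3, the library high in thalamic markers.

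Immediate early genes, which neuronal activity switches on within minutes, were lower on balance. Of 30 measured genes 21 had a log2 fold change below 0, beside 54.1% of all genes, with a median of -0.09. In the lower direction 7 had an unadjusted p under 0.05, beside 2.77% of all genes. With each gene centred on its mean over the 6 libraries, the list mean was -0.05, -0.08 and -0.01 log2 units in ApoE4 mice. It was 0.07, 0.12 and -0.05 in WT mice, so the groups overlapped, with WT library 3 inside the ApoE4 range. Next to *Fos*, *Ier2* had 4.21, 3.96 and 3.48 CPM in ApoE4 mice and 4.75, 5.70 and 5.42 CPM in WT mice (-0.45, standard error 0.13). *Btg2*, an antiproliferative factor, had 15.1, 15.7 and 15.8 CPM in ApoE4 mice and 19.4, 20.2 and 17.1 CPM in WT mice (-0.28, standard error 0.08). In these 3 genes no ApoE4 library reached the lowest WT library. *Dusp1*, a phosphatase that ends MAP kinase signalling, and *Bdnf*, a neurotrophin, had log2 fold changes of -0.26 and -0.20. *Inhba*, the activin subunit, was the member with an unadjusted p under 0.05 in the higher direction, with 12.3, 14.5 and 19.2 CPM in ApoE4 mice and 9.07, 10.5 and 12.9 CPM in WT mice (0.50). The number of genes at an unadjusted p under 0.05 in the lower direction was 4 without ApoE4 library 2, WT library 1 or WT library 2, and 11 without ApoE4 library 3 and WT library 3.

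Transcripts of pituitary hormones had some of the largest fold changes in the lower direction. *Prl*, prolactin, had 6, 52 and 16 counts in the ApoE4 libraries, against 162, 273 and 452 counts in the WT libraries. *Gh*, growth hormone, had 1, 26 and 13 counts in ApoE4 mice and 61, 121 and 193 counts in WT mice. *Pomc*, the precursor of ACTH and melanocortins, had 38, 38 and 35 counts in ApoE4 mice and 73, 134 and 240 counts in WT mice. No ApoE4 library reached a WT library in any of the 3 genes, beside 6.79% of all tested genes with every ApoE4 library below. In WT mice all 3 genes stood in the same order over the libraries, with WT library 3 highest and WT library 1 lowest. *Prl* and *Gh* passed the filter of more than 1 CPM in at least 3 libraries only through these WT libraries. Both were thus tested only because they were high in WT mice, and their separation is a description. *Pomc* passed the filter without them as well. *Cga*, the common subunit of the glycoprotein hormones, had 0, 0 and 0 counts in ApoE4 mice and 5, 1 and 12 counts in WT mice, and was not among the tested genes. *Pou1f1*, the factor that defines prolactin and growth hormone cells, had 0 to 2 counts per ApoE4 library and 0 to 2 counts per WT library. In the 9 libraries of batch 1, *Prl* had 0 to 59 counts and *Pomc* 25 to 63 counts.

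Of 16 pituitary genes, 5 were measured, and the other 2 overlapped between the groups. *Chga*, a granule protein also made by neurons, had a log2 fold change of -0.05, and *Pcsk1*, a convertase of prohormones, of -0.02. *Capn11*, a calpain, had a pattern like that of the hormones, with 0.495, 0.131 and 0.420 CPM in ApoE4 mice and 1.10, 2.76 and 6.23 CPM in WT mice. Its log2 fold change was -3.23 (standard error 0.75), and DESeq2 called it at an adjusted p of 0.00042. Genes that respond to growth hormone had a median of 0.11 over 11 members. Of these *Socs3*, a feedback inhibitor, had an unadjusted p under 0.05 in the lower direction, beside 2.77% of all genes. Its log2 fold change was -0.90, with overlapping groups. The lower count was 0 without ApoE4 library 2, ApoE4 library 3, WT library 2 or WT library 3, and 2 without WT library 1. In the higher direction 3 genes had such a p without ApoE4 library 2 or WT library 3, against 0 with all 6 libraries. Of 7 measured genes of estrogen and progesterone response none had an unadjusted p under 0.05, and the median was 0.11. Of 15 hypothalamic peptides and markers, 2 were measured, *Cartpt* and *Tac2*, and neither had an unadjusted p under 0.05. Their sum over the list was 6.17 to 13.1 CPM in ApoE4 mice and 5.78 to 31.0 CPM in WT mice.

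**Figure D4:**
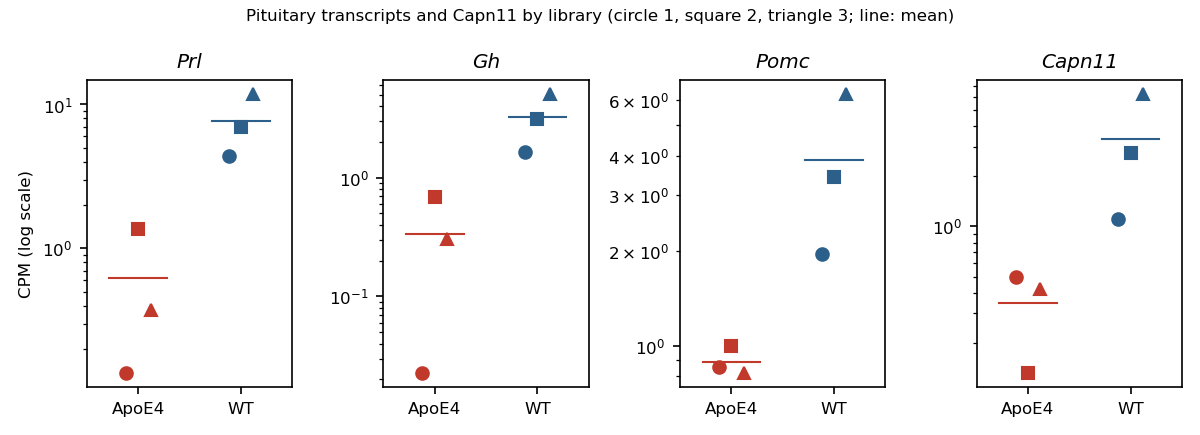
CPM on a log scale (vertical axes) of *Prl*, *Gh*, *Pomc* and *Capn11* in 3 ApoE4 (red) and 3 WT (blue) libraries; symbols mark libraries 1 to 3 and lines the group means. All ApoE4 libraries lie below all WT libraries in each panel, and WT library 3 is the highest. The expression filter was passed by *Prl* and *Gh* only through the WT libraries.

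Apolipoprotein E carries cholesterol, and genes of cholesterol synthesis and uptake had mostly lower levels in ApoE4 mice. Of 23 measured genes 20 had a log2 fold change below 0, beside 54.1% of all genes, with a median of -0.15. In the lower direction 4 had an unadjusted p under 0.05, beside 2.77% of all genes. With each gene centred on its mean over the 6 libraries, the list mean was 0.0181, -0.0493 and -0.176 log2 units in ApoE4 mice. It was 0.0169, 0.132 and 0.058 in WT mice, so ApoE4 library 1 overlapped the WT libraries. *Insig1*, the sterol sensor that holds back SREBP, had 62.0, 51.9 and 48.2 CPM in ApoE4 mice and 64.0, 70.8 and 72.3 CPM in WT mice (-0.35, standard error 0.10). *Mvd*, an enzyme of the pathway, had a log2 fold change of -0.19. In *Insig1* ApoE4 library 3 was lowest, and ApoE4 library 1 was close to the lowest WT library. The number at an unadjusted p under 0.05 was 1 without WT library 2, 2 without ApoE4 library 2 or 3, and 9 without ApoE4 library 1, and the median ranged from -0.20 to -0.09. Among 24 lipoprotein receptors and genes of lipid efflux, *Npc1*, which moves cholesterol out of lysosomes, had an unadjusted p under 0.05 in the higher direction (0.11). In the lower direction 1 gene had, beside 3.28% of all genes higher and 2.77% lower. The list median was -0.01. *Abca1* and *Scarb1* had log2 fold changes of 0.11 and 0.15, with overlapping groups.

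Interferon-induced and MHC genes were also mostly lower, with 17 of 20 below 0, beside 54.1% of all genes, and a median of -0.19. *Ifit1*, an interferon-induced RNA-binding protein, had 1.71, 2.02 and 2.01 CPM in ApoE4 mice and 3.73, 3.50 and 2.83 CPM in WT mice (-0.81, standard error 0.16). *Ifit3* had 5.53, 5.55 and 6.02 CPM in ApoE4 mice and 9.40, 7.11 and 7.07 CPM in WT mice (-0.46, standard error 0.14). Together with *Ifit2* (-0.27) these 3 genes had an unadjusted p under 0.05, beside 2.77% of all genes, and in *Ifit1* and *Ifit3* WT library 1 was highest. This count was 6 without ApoE4 library 1 or WT library 3, and 2 without ApoE4 library 2 or WT library 2. *B2m*, the common chain of MHC class I, had a log2 fold change of -0.17 and overlapping groups.

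Microglial and astrocytic genes showed few differences. Of 20 homeostatic microglial genes none had an unadjusted p under 0.05 in either direction, with a median of -0.07, and of 14 measured genes of disease-associated microglia none did, with a median of -0.04. *Tmem119* had 22.6, 23.9 and 22.8 CPM in ApoE4 mice and 20.0, 20.8 and 22.2 CPM in WT mice (0.14), while *P2ry12*, another marker of resting microglia, had a log2 fold change of -0.10. Of 20 astrocyte markers and 12 genes of astrocyte reactivity none had an unadjusted p under 0.05, and the medians were -0.03 and -0.05. Among 10 complement genes *C3*, the central component, stood apart, with 4.32, 3.48 and 5.14 CPM in ApoE4 mice and 2.44, 2.15 and 2.88 CPM in WT mice (log2 fold change 0.80, standard error 0.19). The other 9 complement genes were below 0, with -0.09 for *C1qa*, while the list median of -0.07 was 0.05 without WT library 3. Of 24 orthologs of Alzheimer risk genes 3 had an unadjusted p under 0.05, all higher, beside 3.28% of all genes (1 without ApoE4 library 2). They were *Slc24a4*, an ion exchanger (0.38), *Rin3*, a Rab5 exchange factor (0.53), and *Inpp5d*, the microglial phosphatase SHIP1 (0.18). Of 19 genes of the App family and secretases none had an unadjusted p under 0.05, and the median was -0.03.

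Endothelial markers were mostly below 0, but those with an unadjusted p under 0.05 did not share 1 direction. Of 30 endothelial markers 23 were below 0, beside 54.1% of all genes, with a median of -0.08. In each direction 2 had an unadjusted p under 0.05, beside 3.28% of all genes higher and 2.77% lower. *Slc2a1*, the glucose transporter of the blood-brain barrier, had 94.4, 85.4 and 87.6 CPM in ApoE4 mice, against 64.3, 68.0 and 75.8 CPM in WT mice (log2 fold change 0.36, standard error 0.07). *Mfsd2a*, the lipid transporter of the barrier, had 23.1, 26.3 and 21.8 CPM in ApoE4 mice and 15.9, 16.2 and 22.0 CPM in WT mice (0.39, standard error 0.14). The groups of *Slc2a1* did not overlap and those of *Mfsd2a*, which is also a gene of the glucocorticoid list, did. *Cldn5*, the main claudin of endothelial tight junctions, had 9.11, 7.36 and 6.82 CPM in ApoE4 mice and 14.2, 10.3 and 9.53 CPM in WT mice (-0.54, standard error 0.18). *Tek*, the angiopoietin receptor, had -0.34. The number of endothelial genes at an unadjusted p under 0.05 in the lower direction was 8 without ApoE4 library 1, 6 without WT library 3, 1 without ApoE4 library 2, WT library 1 or WT library 2, and 0 without ApoE4 library 3.

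Markers of mural cells were lower on balance. Of 9 smooth muscle markers 7 were below 0, beside 54.1% of all genes, with a median of -0.31. In the lower direction 2 had an unadjusted p under 0.05, beside 2.77% of all genes. *Myh11*, the smooth muscle myosin, had 5.91, 5.03 and 5.44 CPM in ApoE4 mice and 8.27, 8.82 and 12.02 CPM in WT mice (log2 fold change -0.83, standard error 0.16). *Acta2*, smooth muscle actin, had 6.09, 8.04 and 8.52 CPM in ApoE4 mice and 7.92, 9.72 and 13.6 CPM in WT mice (-0.46), and the groups overlapped. *Tpm2* had -0.38. WT library 3 was highest in all 3 genes. The sum of fibroblast and meningeal markers was 495 to 565 CPM in ApoE4 mice and 367, 606 and 1004 CPM in WT mice, with WT library 3 highest again. All 19 measured fibroblast and meningeal markers were below 0, none with an unadjusted p under 0.05. Their median of -0.30 was 0.06 without WT library 3, and their part in the smooth muscle difference was not tested. The smooth muscle median was -0.16 without ApoE4 library 2 and -0.20 without WT library 3. The 2 smooth muscle genes at an unadjusted p under 0.05 became 1 without ApoE4 library 1, ApoE4 library 2 or WT library 3, and 4 without WT library 1. Of 12 pericyte markers 11 were below 0, with a median of -0.14. *Vtn*, vitronectin, was the gene with an unadjusted p under 0.05 (-0.38), beside 2.77% of all genes lower. There were 2 such genes without ApoE4 library 1 and 0 without ApoE4 library 3. The pericyte median was -0.05 without ApoE4 library 3 and -0.06 without WT library 1.

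Vascular genes that were also followed by PCR in other mice formed a list of their own. Of these 7 genes none had an unadjusted p under 0.05 between ApoE4 and WT mice. Next to *Acta2*, the log2 fold changes were -0.14 for *Pecam1*, -0.12 for *Ptprb*, -0.07 for *Cdh5*, -0.06 for *Flt1*, -0.0023 for *Vwf* and 0.07 for *Anxa2*. The median of the 7 genes was -0.07. Of 31 extracellular matrix genes, *Thbs1*, *Lama4* and *Fn1* were lower with an unadjusted p under 0.05 (-0.64, -0.48 and -0.35) and *Postn* was higher, beside 2.77% of all genes lower and 3.28% higher at that p. The list median of -0.04 was 0.03 without ApoE4 library 2, 0.0013 without ApoE4 library 3, 0.06 without WT library 3 and 0.04 without both libraries 3. The lower count of 3 was 5 without ApoE4 library 2 and 1 without both libraries 3, and the higher count of 1 was 0 without ApoE4 library 1, 4 without WT library 3 and 5 without both libraries 3. *Postn*, periostin, had 11.3, 7.07 and 8.92 CPM in ApoE4 mice and 1.74, 6.62 and 3.53 CPM in WT mice (1.20, standard error 0.40), a wide spread in both groups.

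Subunits of large protein complexes had small differences that nearly all pointed the same way. Of 75 respiratory chain subunits encoded in the nucleus 73 were below 0, beside 54.1% of all genes, with a median of -0.09, and 9 had an unadjusted p under 0.05, beside 2.77%. *Cycs*, cytochrome c, had 87.2, 84.0 and 76.4 CPM in ApoE4 mice and 91.9, 90.9 and 95.8 CPM in WT mice (-0.17, standard error 0.06). In *Cycs* ApoE4 library 3 was lowest. The count of 9 became 20 without ApoE4 library 1, 17 without WT library 1, 3 without ApoE4 library 2 or WT library 2, 1 without ApoE4 library 3 and 0 without WT library 3. Without ApoE4 library 3 and WT library 3 together the median was -0.02. With each gene centred on its mean over the 6 libraries, the respiratory chain mean was 0.03, -0.03 and -0.13 log2 units in ApoE4 mice. It was -0.02, 0.04 and 0.11 in WT mice, so the groups overlapped. Cytosolic ribosomal proteins were below 0 in 73 of 77 genes, with a median of -0.05 (-0.0050 without both libraries 3). None had an unadjusted p under 0.05 (11 without ApoE4 library 1 and 2 without WT library 1). Their centred mean was 0.06, -0.07 and -0.07 in ApoE4 mice and -0.03, 0.03 and 0.07 in WT mice, and the groups overlapped. Proteasome subunits were below 0 in 29 of 31 genes, with a median of -0.06. At an unadjusted p under 0.05 there were 2 (0 without ApoE4 library 3, WT library 2 or WT library 3). Their centred mean did not overlap, with -0.0097, -0.0074 and -0.073 in ApoE4 mice and -0.0038, 0.051 and 0.043 in WT mice. The 13 transcripts encoded in the mitochondrial genome had a median of 0.0026.

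Short genes had slightly lower medians than long genes. When 16162 genes were divided into 5 bins of like size by exonic length, the median log2 fold change was -0.04 in the bin of shortest genes and 0.01 in that of the longest. The shortest had 66 genes at an unadjusted p under 0.05 in the higher direction and 113 in the lower, and the longest had 177 and 83. Libraries differed in this within their own group. The median deviation of the shortest genes from their mean over the 6 libraries was 0.0097, -0.016 and -0.042 log2 units in ApoE4 libraries 1 to 3, and -0.00032, 0.0089 and 0.042 in WT libraries 1 to 3, so ApoE4 library 3 and WT library 3 lay farthest out. The part of gene length in the differences of the complexes was not tested.

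**Figure D5:**
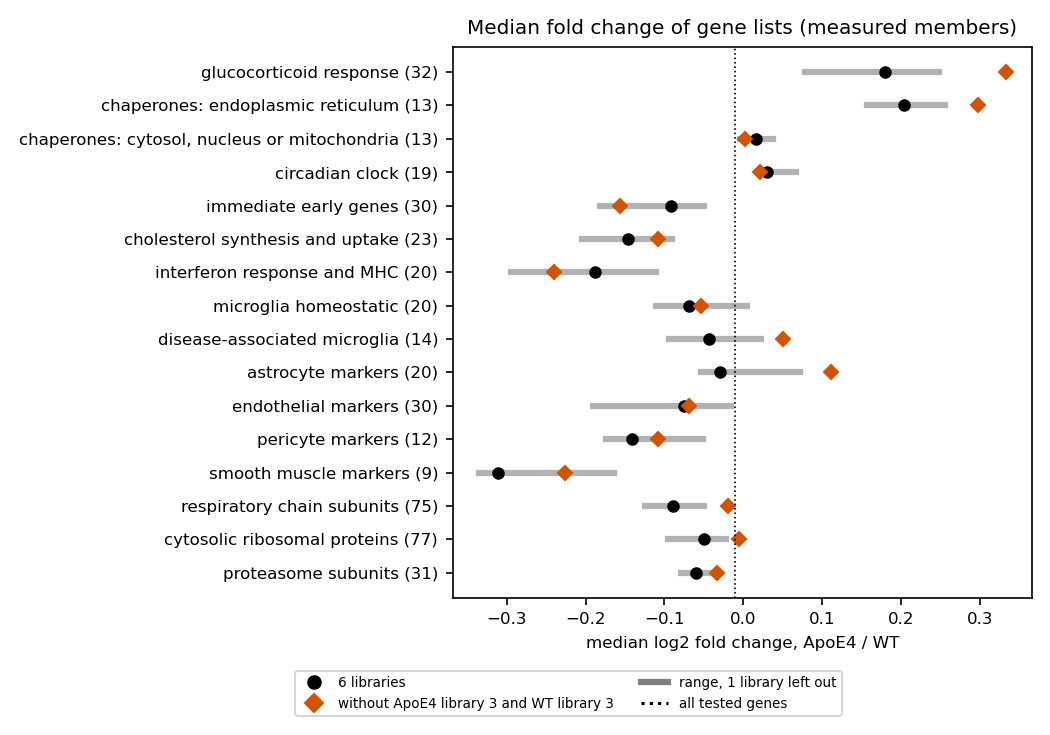
Median log2 fold change of ApoE4 over WT (horizontal axis) of 16 gene lists, with the number of measured members in parentheses; black dots use 6 libraries, grey bars give the range when 1 library is left out, orange diamonds leave out ApoE4 library 3 and WT library 3, and the dotted line is the median of all tested genes (-0.01). The glucocorticoid and ER chaperone medians lie to the right of that line in each setting plotted, and the respiratory chain median nears it without both libraries.

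Beside a median of -0.01 over all genes, the medians of markers of the neuron types of the hippocampus were -0.11 for 11 genes of CA1 (0.01 without ApoE4 library 3), 0.02 for 14 genes of CA2 and CA3 and 0.05 for 15 genes of dentate granule cells. Of the CA1 markers, *Wfs1*, which encodes the ER membrane protein wolframin, had 146, 126 and 152 CPM in ApoE4 mice and 121, 116 and 110 CPM in WT mice (0.29, standard error 0.08). *Ndst4*, a heparan sulfate enzyme, had 28.7, 32.96 and 29.3 CPM in ApoE4 mice and 39.1, 42.9 and 35.6 CPM in WT mice (-0.37, standard error 0.09). The groups did not overlap in either gene, and the 2 CA1 markers differed in opposite directions. *Neurod1*, a factor of newborn granule neurons, had 16.7, 17.8 and 14.9 CPM in ApoE4 mice and 19.7, 19.8 and 20.3 CPM in WT mice (-0.28). Of 28 glutamate receptor genes 3 had an unadjusted p under 0.05, 1 of them higher, and of 14 GABA-A receptor genes 2 had, 1 of them higher. Over all genes 3.28% were higher and 2.77% lower at that p. Among 27 genes of presynaptic release 2 had an unadjusted p under 0.05, both higher, and the list median was -0.0044. *Syt7*, a calcium sensor of slow release, was 1 of them (0.16). The higher count was 0 without ApoE4 library 1, ApoE4 library 3 or WT library 3, and 5 without WT library 1. The mean of myelin genes was 0.07, -0.20 and 0.16 log2 units in ApoE4 mice and 0.04, -0.05 and -0.04 in WT mice, so the groups overlapped.

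Markers of tissue next to the hippocampus gave large fold changes, some of which rested on single libraries. Of 18 striatal markers all were above 0, beside 45.9% of all genes, with a median of 1.53. In the higher direction 7 had an unadjusted p under 0.05, beside 3.28% of all genes. *Adora2a*, the adenosine receptor of striatal projection neurons, had 1.91, 1.52 and 38.2 CPM in ApoE4 mice and 1.18, 2.07 and 1.44 CPM in WT mice, so only ApoE4 library 3 was high. Without ApoE4 library 3 the striatal median was 0.10 and 1 gene had an unadjusted p under 0.05. The choroid plexus median was 0.14, and it was -1.23 without ApoE4 library 1 and 1.86 without WT library 3. *Slc10a4*, a vesicular transporter of cholinergic neurons, had 4.14, 1.47 and 3.78 CPM in ApoE4 mice and 0.322, 1.23 and 0.890 CPM in WT mice (log2 fold change 1.95, standard error 0.50). It was among the genes DESeq2 called (adjusted p 0.049). The sum of 12 septal and cholinergic markers, a list chosen after the data were seen, was 164, 73.1 and 176 CPM in ApoE4 mice and 18.3, 89.1 and 175 CPM in WT mice. That sum overlapped between the groups, and its part in the *Slc10a4* difference was not tested. *Dlx1*, a factor of forebrain interneurons, had 30.9, 25.6 and 35.9 CPM in ApoE4 mice and 15.7, 25.4 and 17.3 CPM in WT mice (0.66), the highest again in ApoE4 library 3. Ependymal markers were above 0 in 16 of 17 genes, beside 45.9% of all genes, with a median of 0.54 and sums of 148, 140 and 210 CPM in ApoE4 mice and 96.0, 121 and 158 CPM in WT mice. The ependymal median was 0.27 without ApoE4 library 3, 0.29 without WT library 1 and 0.89 without WT library 3. Of the 17 ependymal markers 1 had an unadjusted p under 0.05 in the higher direction, against 0 without ApoE4 library 3, WT library 1 or WT library 2, 3 without ApoE4 library 1, 11 without WT library 3, and 10 without ApoE4 library 3 and WT library 3 together.

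The remaining genes with large fold changes among the calls of DESeq2 were *Cxcl5* and *Xdh*. *Cxcl5*, a neutrophil chemokine, had 3.46, 2.36 and 4.32 CPM in ApoE4 mice and 0.913, 1.89 and 1.23 CPM in WT mice (log2 fold change 1.33, standard error 0.31). *Xdh*, xanthine dehydrogenase, had 6.59, 5.76 and 7.71 CPM in ApoE4 mice and 3.87, 3.58 and 4.42 CPM in WT mice (0.76, standard error 0.15). Both were higher in all 3 ApoE4 libraries than in any WT library.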

How the data were processed

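Per the study's methods and the submitters' processing notes, the authors made directional poly(A) libraries from whole hippocampi, trimmed the reads with Trimmomatic 0.39, aligned them with STAR 2.7.1a to the mouse genome (GENCODE annotation) supplemented by human *APOE*, and obtained gene counts with HTSeq 0.11.2. The authors deposited unnormalized counts, in which human and mouse *Apoe* share a row. Whether counting used the strand is not given in the sources at hand, so values of overlapping and antisense genes are uncertain.

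Genes above 1 CPM in at least 3 of 15 libraries were kept, scaled by the upper quartile and tested on the 6 libraries of batch 2 with edgeR 4.0.16 (R 4.3.3) by the quasi-likelihood test, with Benjamini-Hochberg adjustment over 16171 genes and a threshold of 0.1. DESeq2 1.42.0 and edgeR's robust likelihood ratio test were alternatives, as were other scalings, filters, the replicate number as a block and leaving out libraries. Scripts were tested on simulated data. Symbols, biotypes and coordinates come from a GENCODE annotation of GRCm38, which matched 55230 of 55471 gene IDs, and promoter windows from RefSeq. Gene lists were described by counts and medians of their measured members, with no test of a list. The members, lists and tests were chosen with earlier results of these data known. The text names *Apoe* and genes measured by PCR, up to 12 protein-coding genes per direction with the smallest p, at least 1 CPM on average and no overlap between groups, up to 6 members of each list with the smallest p, measured pituitary genes, up to 5 genes per direction with the largest fold change among DESeq2 calls, and any variable-copy gene with an unadjusted p under 0.05, of which there were 0. No 2 libraries of a group were alike within counting noise. Some members of the lists are counted but not reported by name here.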

Additional observations from a re-analysis of the deposited data

How the results depend on the processing

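The count of 0 genes at an adjusted p under 0.1 in edgeR's quasi-likelihood test was 43 with DESeq2, 115 with the robust likelihood ratio test, and 0 to 1 when 1 library was left out. It was 0 with TMM or median-of-ratios scaling, the other filters, legacy or robust quasi-likelihood options, all 15 libraries in the fit or a threshold of 0.05. The 978 genes at an unadjusted p under 0.05 were 1602 with no filter, where 32419 genes were tested, and 474 to 1236 when 1 library was left out, the fewest without ApoE4 library 3. Where 1 library was left out, the pair that remained was assumed to vary like the other group. No scaling moved the median of all genes by more than 0.1.

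Replicate numbers did not pair the libraries. Deviations from the group means of same-numbered libraries correlated at -0.313, 0.0944 and 0.0403. The highest correlations were those of ApoE4 library 2 with WT library 1 (0.4) and of ApoE4 library 1 with WT library 3 (0.37). With the replicate block, 811 genes had an unadjusted p under 0.05 and 0 passed the adjusted p.

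The medians of 30 of 54 lists had the other sign in at least 1 setting, most of them near 0. Those of glucocorticoid, ER chaperone, immediate early, cholesterol, interferon, mural, endothelial, respiratory chain, ribosomal and proteasome genes did not. For hypothalamic peptides, a list of 2 measured genes, the median was -0.83. It was 0.325 without ApoE4 library 3 and WT library 3 (an alternative chosen after seeing the data), and -1.13 to 0.342 when 1 library was left out. With no filter it was 0.657, but that value also covers members of the list too low to pass the filter, so it is not a median of the same genes. Leaving out 1 library gave -0.11 to 0.00516 for homeostatic microglia, -0.0318 to 0.0782 for dentate granule markers and -0.011 to 0.0491 for glutamate receptors. Without both libraries 3 the dentate and glutamate receptor medians were -0.0244 and -0.0274, and the log2 fold change of *Tac2* was 0.101. The causes were not tested.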

Other observations

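Other gene groups gave the following values. Of 22 interneuron markers and peptides, 4 had an unadjusted p under 0.05 in edgeR's quasi-likelihood test, all higher in ApoE4 mice, beside 3.28% of all genes, and the median was 0.07. The count of 4 was 1 without ApoE4 library 3, WT library 1 or WT library 3, and 0 without ApoE4 library 3 and WT library 3 together. They were *Dlx1*, *Dlx6*, *Slc32a1* and *Penk*, and all 4 were highest in ApoE4 library 3, the library with most striatal transcripts. *Penk*, the precursor of enkephalins and abundant in the striatum, had 29.8, 19.6 and 222 CPM in ApoE4 mice and 17.5, 22.8 and 23.0 CPM in WT mice. *Pvalb*, a marker of fast-spiking interneurons, had 29.2, 28.7 and 18.2 CPM in ApoE4 mice and 30.1, 31.8 and 35.6 CPM in WT mice. Its log2 fold change was -0.36 (standard error 0.17), with an unadjusted p of 0.074 in edgeR's test across all genes. The groups of *Pvalb* did not overlap, and ApoE4 library 3 was far below the other 5 libraries.

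The counts of the next lists stand beside 3.28% of all genes higher and 2.77% lower at an unadjusted p under 0.05. Of 16 genes of neurogenesis and proliferation, 1 had an unadjusted p under 0.05 in each direction, and the median was 0.11. Of 14 genes of the FOXO and fasting response, a list chosen after the data were seen, *Irs2* had an unadjusted p under 0.05, and the median was 0.11. Of 12 markers of oligodendrocyte precursors 1 was higher with an unadjusted p under 0.05, and the median was -0.02. Of 12 cortical and claustral markers 1 was lower, *Rorb*, and the median was -0.02. Of 8 measured genes of plasminogen and coagulation 1 was lower (0 without ApoE4 library 1 or ApoE4 library 2), and the median was -0.03. Of 14 nuclear noncoding RNAs, 5 hemoglobin and blood genes and 17 genes that vary between substrains of C57BL/6 none had an unadjusted p under 0.05, and the medians were 0.01, -0.16 and -0.03.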
